A study of Mus musculus with 10 samples.

Results

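The lysyl oxidase family of the mouse has 5 genes, Lox, Loxl1, Loxl2, Loxl3 and Loxl4, and all 5 were found by gene name among the 46603 genes of the deposited count table. They were measured in macrophages sorted from 4T1 tumours, which are grown from a mouse mammary carcinoma cell line. Live cells carrying both CD11B and F4/80 were split by podoplanin (PDPN), a membrane glycoprotein, into PDPN-positive cells, which the submitters call PoEMs, and PDPN-negative cells, called non-PoEMs. Each of 5 tumours, numbered 1, 2, 4, 5 and 6, gave 1 library of each kind, so that 5 PoEMs libraries stood against 5 non-PoEMs libraries. Both fractions share the tumour, the collagenase and dispase digestion, the sort on CD11B and F4/80 and SMART-Seq pre-amplification of the RNA. The sources used here do not state the strain, age or sex of the mice, nor whether each tumour came from its own mouse, so the p-values measure only the spread between these samples. The study asks what PDPN-positive tumour macrophages contribute to the growth of lymphatic vessels and to the remodelling of the matrix, and the enzymes of this family act on that matrix.

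Lysyl oxidases are secreted, copper-dependent enzymes that oxidise lysine side chains of collagen and elastin to aldehydes, which then join neighbouring molecules into covalent cross-links. LOX and LOXL1 are made as proenzymes and activated outside the cell by proteases of the BMP1 type, whereas LOXL2, LOXL3 and LOXL4 carry scavenger receptor domains in front of the shared catalytic domain. In tumours the family is known for stiffening of the collagen matrix, and fibroblasts are its best known source.

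Library totals ran from 12597829 to 15406722 counts, so that 1 count was worth 0.0652 to 0.0782 CPM (counts relative to the library total, scaled between libraries by the TMM method of edgeR). Pdpn, the gene of the sorted surface protein, measured 214.5 ± 22.9 CPM in PoEMs and 19.3 ± 7.33 CPM in non-PoEMs (SD, n = 5 each). All 10 macrophage markers listed passed the low-count filter, with a summed level of 15169 to 16694 CPM in PoEMs and 14874 to 16743 CPM in non-PoEMs. Of these markers Itgam, the gene of CD11B, was higher in PoEMs by 0.22 on the log2 scale, and Csf1r and Ptprc were lower, at -0.24 and -0.34 (edgeR adjusted p = 0.0347, 0.0493 and 0.0345; named after their values were seen). A fit with the tumour number as a block called 3 higher and 3 lower. Of all genes tested, 6.83% were higher and 6.77% lower without the block, and 13.8% and 14.3% with it.

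The family split into genes that were higher in PoEMs and genes that were not. Lox, Loxl1 and Loxl2 were 9.71- to 12.9-fold higher in PoEMs, with 2 to 9 reads per library in non-PoEMs, while Loxl3, the family member with the most counts in every library, and the sparse Loxl4 were not higher. Of the 5 members, 3 were higher and 0 lower by edgeR's quasi-likelihood test at a p under 0.05 after Benjamini-Hochberg adjustment over 13595 genes, where 6.83% of all genes tested were higher and 6.77% lower. DESeq2 and an unadjusted p under 0.05 gave the same numbers. A fit with the tumour number as a block called Loxl3 lower as well, where 13.8% of all genes tested were higher and 14.3% lower. The CPM of the groups did not overlap for 3 members, all higher in PoEMs, against 5.38% of all genes tested. All 5 members passed the filter on low counts, but Lox, Loxl1 and Loxl2 passed it through the PoEMs libraries alone: none of their counts in non-PoEMs reached 10. For these a pass of the filter already required a difference, so their count and their edgeR p-values below are given as a description.

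Lox, the founding member of the family, had the largest fold change of the 5. It measured 8.22, 5.13, 4.56, 6.40 and 6.75 CPM in PoEMs of tumours 1, 2, 4, 5 and 6, against 0.235, 0.524, 0.427, 0.505 and 0.658 CPM in non-PoEMs of the same tumours. Every PoEMs library lay above every non-PoEMs library, and the lowest PoEMs value was that of tumour 4. In counts these were 429 reads over all PoEMs libraries and 33 over all non-PoEMs libraries, where a library held 3 to 9. The fitted log2 fold change was 3.69 ± 0.25 (SE, 95% interval 3.15 to 4.23, edgeR adjusted p = 2.82e-06), a 12.9-fold difference, and Lox ranked 20 of 13595 genes by fold change. Between tumours the ratio of PoEMs to non-PoEMs ran from 9.78 to 35.0; the highest, in tumour 1, rested on 3 reads in non-PoEMs.

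Loxl1, the family member best known for elastic fibre maintenance, followed the same split. Its levels were 4.85, 3.03, 2.998, 4.65 and 3.02 CPM in PoEMs of tumours 1, 2, 4, 5 and 6, against 0.313, 0.328, 0.213, 0.288 and 0.658 CPM in non-PoEMs. The groups did not overlap, and within PoEMs tumours 1 and 5 stood above the rest, which lay close together. The log2 fold change was 3.34 ± 0.29 (SE, 95% interval 2.70 to 3.97, edgeR adjusted p = 1.96e-05), with Loxl1 higher in 5 of 5 tumours. The smallest ratio was 4.60 in tumour 6, where the non-PoEMs library held 9 reads of Loxl1, and the largest was 16.1 in tumour 5.

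Loxl2, which acts on collagen IV among other substrates and has been tied to tumour invasion, had the lowest level of the 3 that rose. It measured 2.39, 1.44, 2.67, 2.74 and 3.02 CPM in PoEMs of tumours 1, 2, 4, 5 and 6, against 0.235, 0.131, 0.213, 0.288 and 0.366 CPM in non-PoEMs. The groups were again apart, and tumour 2 was the lowest in each of them. The log2 fold change was 3.28 ± 0.31 (SE, 95% interval 2.62 to 3.94, edgeR adjusted p = 3.17e-05), and the ratio within a tumour stayed between 8.27 and 12.5. Only 17 reads of Loxl2 were counted over all non-PoEMs libraries, against 170 over all PoEMs libraries.

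Loxl3, whose product is needed for palate and spine development in the mouse, behaved otherwise. Its levels were 10.05, 11.9, 11.99, 9.60 and 7.29 CPM in PoEMs of tumours 1, 2, 4, 5 and 6, against 12.1, 17.4, 12.3, 13.2 and 8.48 CPM in non-PoEMs. The groups overlapped widely, but within each of the 5 tumours the PoEMs value was the lower, with a ratio of 0.686 in tumour 2 at one end and of 0.975 in tumour 4 at the other. The log2 fold change was -0.32 ± 0.18 (SE, 95% interval -0.71 to 0.07, edgeR adjusted p = 0.270), and did not pass the test. In the fit with the tumour block it was -0.31 ± 0.10 (SE, 95% interval -0.52 to -0.11) and was called lower (edgeR adjusted p = 0.0260); without tumour 1, 2 or 5 the blocked call was lost (adjusted p = 0.0531, 0.137 and 0.0906). In both fits the upper end of the interval lay far under the rise of Lox, Loxl1 and Loxl2. Per the GENCODE M21 annotation, 535 of the 4603 exon bases of Loxl3 also lie in exons of Htra2 on the other strand; the sources used here do not state whether counting used strand. Htra2 itself differed by -0.09 on the log2 scale (edgeR adjusted p = 0.583).

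Loxl4 was the sparsest member in PoEMs, with 5 to 15 reads per library. It measured 0.492, 0.722, 0.652, 0.381 and 1.16 CPM in PoEMs of tumours 1, 2, 4, 5 and 6, against 1.17, 0.721, 0.995, 0.649 and 1.32 CPM in non-PoEMs. The groups overlapped, with PoEMs lower in 4 of 5 tumours and level in tumour 2. The log2 fold change of -0.50 ± 0.32 (SE, 95% interval -1.20 to 0.20) did not pass the test (edgeR adjusted p = 0.340, and 0.208 with the tumour as a block). At this depth a difference of either sign was within the interval. Without tumour 4 or tumour 6 it had too few reads to pass the filter.

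**Figure D1:**
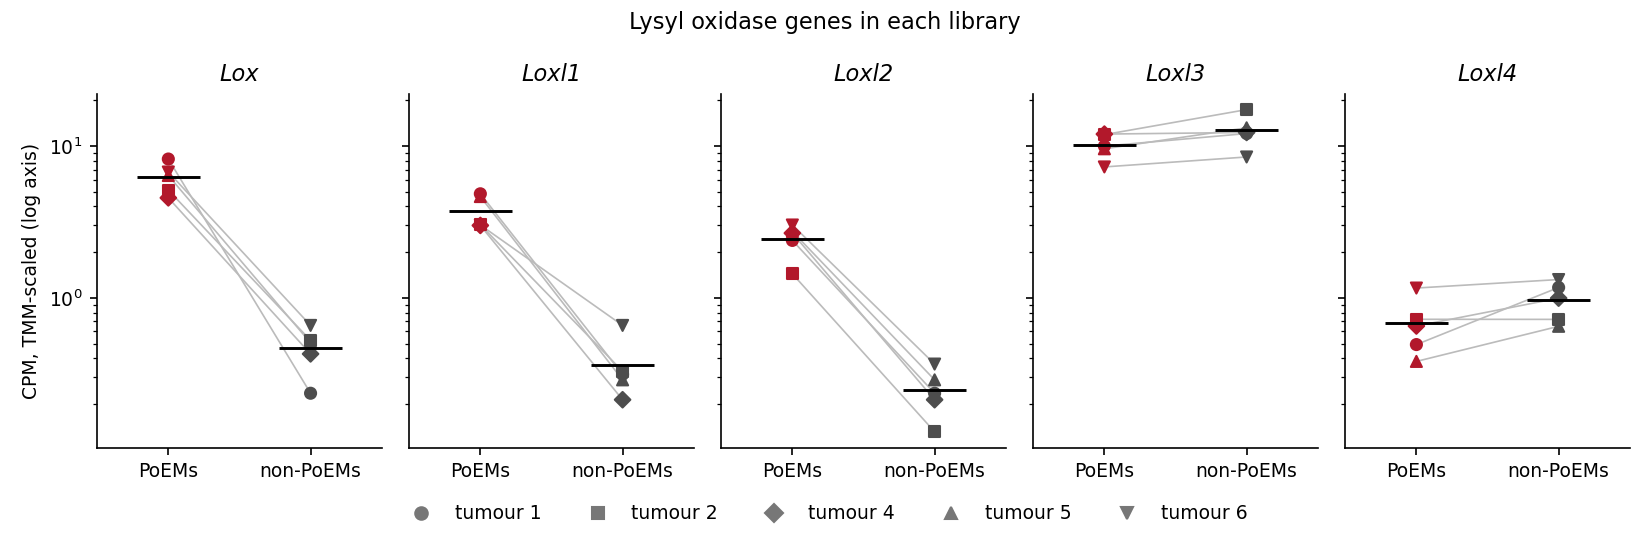
CPM of each lysyl oxidase gene (log axis) in the 5 PoEMs libraries, in red, and the 5 non-PoEMs libraries, in grey; symbols and lines mark the tumour and the bar is the group mean. Lox, Loxl1 and Loxl2 separate the groups completely, with lowest PoEMs values of 4.56, 2.998 and 1.44 CPM above highest non-PoEMs values of 0.658, 0.658 and 0.366 CPM, whereas the groups of Loxl3 and Loxl4 overlap.

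**Figure D2:**
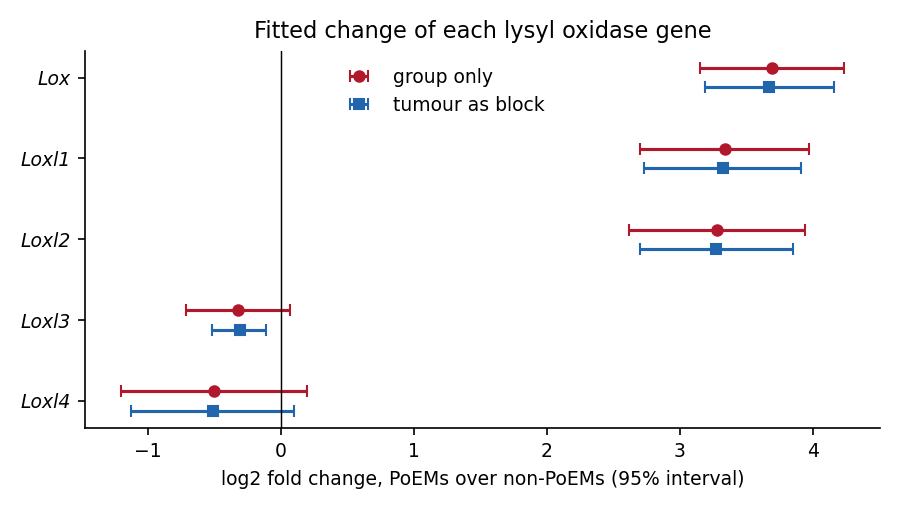
Fitted log2 fold change, PoEMs over non-PoEMs, of each member with its 95% interval, without (red) and with (blue) the tumour as a block. Lox, Loxl1 and Loxl2 lie at 3.69, 3.34 and 3.28, and Loxl3 and Loxl4 at -0.32 and -0.50, where the block narrows the interval of Loxl3 to -0.52 to -0.11.

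The spread between libraries was larger than counting error where the reads allowed a look. In PoEMs the coefficient of variation of CPM was 23.1%, 25.6% and 24.8% for Lox, Loxl1 and Loxl2, against 10.8%, 13.9% and 17.1% for counting error alone at their mean counts. In non-PoEMs the corresponding values were 33.1%, 47.9% and 35.4% against 38.9%, 44.7% and 54.2%, so the variation of these genes among non-PoEMs was near what counting gives. Loxl3, with more reads, varied by 19.0% in PoEMs and 25.0% in non-PoEMs, against 8.38% and 7.49% for counting. Reads without molecular identifiers are not independent molecules, so these limits cover counting error only.

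All 10 pairs of members were compared by the ratio of their counts within each library, which needs no scaling between libraries but rests on the same counts as the fold changes above and is not independent of them. In 6 pairs, those of Lox, Loxl1 or Loxl2 with Loxl3 or Loxl4, the ratio was higher in PoEMs, by 3.46 to 4.19 on the log2 scale in the means of 5 libraries and in each of the 5 tumours (two-sided exact permutation p = 0.00794 for all 6 pairs, no smaller p being possible with 5 libraries against 5; 0.0132 adjusted over the 10 pairs). Lox held 603 reads per 1000 of Loxl3 in PoEMs and 37.0 in non-PoEMs, pooled over libraries. By pairs of tumours the exact permutation p of these ratios was 0.0625, the smallest that this test allows with 5 pairs.

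Within the 3 that rose, no difference in their rise passed the test. The log2 ratio of Lox to Loxl1 was 0.74 ± 0.26 in PoEMs and 0.38 ± 0.54 in non-PoEMs (SD, n = 5 each, exact permutation p = 0.254, adjusted p = 0.317), and that of Lox to Loxl2 was 1.34 ± 0.44 in PoEMs and 0.84 ± 0.63 in non-PoEMs (exact permutation p = 0.167, adjusted p = 0.238). That of Loxl1 to Loxl2 was 0.60 ± 0.49 in PoEMs and 0.46 ± 0.50 in non-PoEMs (exact permutation p = 0.667, adjusted p = 0.667). Without the non-PoEMs library of tumour 2, which held 2 reads of Loxl2, Lox rose more than Loxl2 (0.73 on the log2 scale, exact permutation test, adjusted p = 0.0454). Between Loxl3 and Loxl4 the ratio also did not differ beyond its spread, at 3.9 ± 0.75 in PoEMs and 3.67 ± 0.75 in non-PoEMs (exact permutation p = 0.667, adjusted p = 0.667).

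Per exon length, Loxl3 led the family in each fraction. In PoEMs the order of mean levels was Loxl3 at 2.21 ± 0.421, Lox at 1.30 ± 0.301, Loxl1 at 1.13 ± 0.288, Loxl2 at 0.454 ± 0.113 and Loxl4 at 0.162 ± 0.0713 CPM per kb of exon (SD, n = 5 each). Of the neighbours in that order, Loxl1 and Loxl2 had ranges that did not overlap; Loxl3 and Lox, Lox and Loxl1, and Loxl2 and Loxl4 had ranges that did. In non-PoEMs Loxl3 stood alone at 2.76 ± 0.690, followed by Loxl4 at 0.230 ± 0.0678, Loxl1 at 0.109 ± 0.0523, Lox at 0.0983 ± 0.0326 and Loxl2 at 0.0456 ± 0.0162 CPM per kb of exon, each neighbour after Loxl3 overlapping the next. With coding length in place of exon length, Lox (5.04 ± 1.17 CPM per kb) came ahead of Loxl3 (4.50 ± 0.856 CPM per kb) in PoEMs, and ahead of Loxl1 in non-PoEMs.

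Loxl3 made up 42.2% ± 8.47 of the family's level per kb of exon in PoEMs and 84.2% ± 7.12 in non-PoEMs (SD, n = 5 each), with ranges of 33.3% to 51.6% and 72.0% to 90.3%. Lox made up 24.7% ± 4.75 in PoEMs and 3.14% ± 1.4 in non-PoEMs, and Loxl1 21.2% ± 3.83 in PoEMs and 3.6% ± 2.37 in non-PoEMs. Loxl2 contributed 8.71% ± 2.45 in PoEMs and 1.5% ± 0.746 in non-PoEMs, and Loxl4 3.17% ± 1.64 in PoEMs and 7.52% ± 3.3 in non-PoEMs. By coding length Lox held 38.7% ± 6.22 in PoEMs and 5.84% ± 2.54 in non-PoEMs, and Loxl3 35.1% ± 8.19 in PoEMs and 82.7% ± 7.44 in non-PoEMs. The summed level was 4.75 to 5.93 CPM per kb in PoEMs and 2.56 to 4.18 CPM per kb in non-PoEMs. The lowest PoEMs sum thus lay above the highest non-PoEMs sum.

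**Figure D3:**
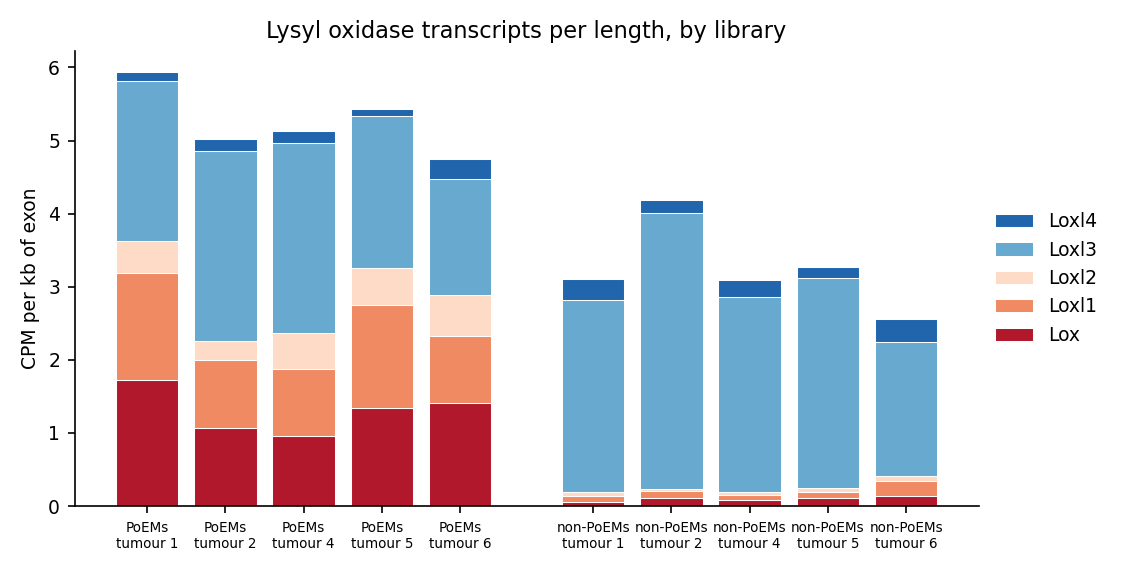
Level of each lysyl oxidase gene in CPM per kb of exon, stacked for each library, PoEMs on the left and non-PoEMs on the right. The PoEMs bars reach 4.75 to 5.93 and the non-PoEMs bars 2.56 to 4.18, with Loxl3 (light blue) holding 33.3% to 51.6% of a PoEMs bar and 72.0% to 90.3% of a non-PoEMs bar.

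Markers known from fibroblasts were mostly higher in PoEMs, as were Lox, Loxl1 and Loxl2. Of the 16 fibroblast markers listed, 13 were tested. In PoEMs 11 were higher and 0 lower, against 6.83% and 6.77% of all genes tested. The median log2 fold change was 1.64, where that over all genes tested was 0.01. Lum and Mfap5, with 16 and 15 reads over all non-PoEMs libraries, passed the low-count filter through PoEMs alone (Mfap5 named after its values were seen). No marker of the list was lower by DESeq2 or at an unadjusted p under 0.05. Their summed level was 49.8 to 71.7 CPM in PoEMs and 26.1 to 28.6 CPM in non-PoEMs; Tcf21 was at 0 in every library. Dcn (decorin) and Lum (lumican), small proteoglycans of fibroblasts, were singled out after their values were seen and measured 5.55 ± 2.35 and 2.36 ± 0.603 CPM in PoEMs and 0.679 ± 0.282 and 0.226 ± 0.173 CPM in non-PoEMs (SD, n = 5 each). Their log2 fold changes of 3.0 ± 0.36 and 3.32 ± 0.41 (SE, edgeR adjusted p = 2e-04 and 0.00023) stood at the top of this list, whose other 11 tested members lay between -0.12 and 2.81. In bulk RNA, fewer cells of a type and less RNA per cell cannot be told apart, and the part of fibroblast RNA in the lysyl oxidase values was not tested.

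The members were also given relative to these markers within each library. Relative to the whole fibroblast list, Lox, Loxl1 and Loxl2 were higher in PoEMs by 2.51, 2.15 and 2.01 on the log2 scale, and Loxl3 and Loxl4 differed by -1.46 and -1.68. All 5 tumours had these signs (two-sided exact permutation p = 0.00794 for each member, also after adjustment over the 5). For Loxl3 and Loxl4 the differences came mainly from the denominator. The mean sum of the list was 62.4 CPM in PoEMs and 27.8 CPM in non-PoEMs, while Loxl3 and Loxl4 differed by -0.32 and -0.50. Their ratios add no test of these genes. Those of Lox, Loxl1 and Loxl2 rest on the same counts as their fold changes and are not independent of them. In non-PoEMs 26.3% of the reads of that list came from Cald1, 18.5% from Fap and 16.3% from Pdgfrb, whose log2 fold changes were 0.32, -0.12 and 0.88 (edgeR adjusted p = 0.0547, 0.880 and 0.00693). These markers were named for their shares of the reads, after their values were seen. Relative to Dcn and Lum alone, chosen with their fold changes known, the values are a description with no test: Lox, Loxl1 and Loxl2 differed by 0.47, 0.11 and -0.03, and Loxl3 and Loxl4 by -3.49 and -3.72. Without the non-PoEMs library of tumour 6, which held 4 reads of Dcn and 0 of Lum, Lox, Loxl1 and Loxl2 differed by 0.94, 0.67 and 0.45.

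Markers of other stromal and tumour cells were called only in the fit with the tumour block. Without it the edgeR test called 0 of the 3 pericyte, 4 endothelial, 2 lymphatic endothelial and 8 epithelial tumour cell markers tested, and so did DESeq2. At an unadjusted p under 0.05, 1 pericyte and 2 epithelial markers were lower and 0 markers of these 4 lists were higher. The blocked fit called Pecam1, an endothelial gene that some leukocytes also express, higher at 0.44 and Cdh1, the gene of E-cadherin, higher at 0.72 on the log2 scale (edgeR adjusted p = 0.000147 and 0.00682). It called the pericyte gene Rgs5 lower at -0.93 and the epithelial genes Epcam and Krt8 lower at -0.65 and -0.28 (edgeR adjusted p = 0.0358, 0.0356 and 0.0323). These 5 genes were named for their blocked calls, after their values were seen. The summed epithelial markers were 99.1 to 264.7 CPM in PoEMs and 84.8 to 217.2 CPM in non-PoEMs, and the summed endothelial markers 101.9 to 278.5 CPM in PoEMs and 87.1 to 204.1 CPM in non-PoEMs. Lymphatic endothelial markers summed to 107.3 to 237.5 CPM in PoEMs and 57.3 to 226.1 CPM in non-PoEMs, with Ccl21a at 0 throughout, and pericyte markers to 4.19 to 7.70 CPM in PoEMs and 5.41 to 7.53 CPM in non-PoEMs. The epithelial, endothelial and lymphatic sums each came mostly from a single gene. In mean CPM of PoEMs, Cdh1 held 124.0 of 165.5, Pecam1 156.0 of 189.9 and Lyve1 151.7 of 154.7. The corresponding values in non-PoEMs were 75.9 of 124.8, 112.0 of 150.6 and 128.2 of 130.6. The lymphatic markers Prox1 and Flt4 were at 0.217 and 2.84 CPM in PoEMs and 0.120 and 2.34 CPM in non-PoEMs. Lyve1, Prox1 and Flt4 were named after their values were seen. Markers of monocytes, neutrophils and eosinophils were lower in PoEMs for 2 of 5, 6 of 6 and 4 of 4 tested genes, against 6.77% of all genes tested; under the block 4 of 5 monocyte markers were lower, against 14.3%. Their part in the lower Loxl3 of PoEMs was not tested. Summed, they reached 416.7 to 589.0, 97.2 to 131.0 and 4.30 to 12.6 CPM in PoEMs, against 926.5 to 1448, 228.4 to 327.9 and 57.2 to 141.3 CPM in non-PoEMs. The eosinophil marker Il5ra, with 4 reads over all PoEMs libraries, passed the low-count filter through non-PoEMs alone (named after its values were seen).

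Most of the tested substrates of the family were higher in PoEMs, as were Lox, Loxl1 and Loxl2. Of 10 listed collagen and elastin genes 9 were tested. In PoEMs 7 were higher and 0 lower, against 6.83% and 6.77% of all genes tested, also by DESeq2 and at an unadjusted p under 0.05, and the median log2 fold change was 3.91. Col5a3 and Eln, with 19 and 13 reads over all non-PoEMs libraries, passed the low-count filter through PoEMs alone. For this pair the pass already required a difference, so their part in the count is a description. The chains of type I collagen, Col1a1 and Col1a2, rose by 3.95 ± 0.22 and 4.03 ± 0.15 (SE, edgeR adjusted p = 3.04e-06 and 2.9e-08), and those of the fibril-nucleating collagen V, Col5a1 and Col5a2, by 2.81 ± 0.19 and 3.91 ± 0.21. Eln, the gene of elastin, was at 2.02 ± 1.22 CPM in PoEMs and 0.182 ± 0.178 CPM in non-PoEMs (SD, n = 5 each, edgeR adjusted p = 0.00294). The tested substrates that did not pass were the collagen IV genes Col4a1 and Col4a2, at log2 fold changes of 0.40 ± 0.19 and 0.35 ± 0.17 (SE, edgeR adjusted p = 0.189 and 0.204); in the blocked fit both were called higher (adjusted p = 0.00568 and 0.0157). These are substrates of LOXL2, whose transcript rose 9.71-fold in the same libraries. Eln, Col4a1 and Col4a2 were named after their values were seen.

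The enzymes were also set against type I collagen within each library. The log2 ratio of Lox to the sum of Col1a1 and Col1a2 was -5.03 ± 0.19 in PoEMs and -4.69 ± 0.57 in non-PoEMs (SD, n = 5 each), a difference of -0.34 that did not pass the test (exact permutation p = 0.254, adjusted p = 0.254). Without the non-PoEMs library of tumour 1, with its 3 reads of Lox, the difference was -0.57 and passed (exact permutation test, adjusted p = 0.0132). Loxl1 and Loxl2 were lower relative to type I collagen in PoEMs, at -0.70 and -0.84 (exact permutation test, adjusted p = 0.0265 and 0.0397). The call of Loxl2 was lost on leaving out the non-PoEMs library of tumour 1, 4, 5 or 6 (exact permutation test, adjusted p from 0.0556 to 0.0694), and that of Loxl1 on leaving out both libraries of tumour 1, 2, 4 or 6 (0.0714 to 0.0952). Pooled over libraries there were 30.7 reads of Lox, 18.4 of Loxl1 and 12.2 of Loxl2 per 1000 reads of type I collagen in PoEMs, and 37.2, 28.2 and 19.1 in non-PoEMs. For Loxl3 the corresponding values were 50.9 in PoEMs and 1000 in non-PoEMs, a difference of -4.30 on the log2 scale of the ratio (exact permutation p = 0.00794, adjusted p = 0.0198). That difference came mainly from the denominator, as Col1a1 and Col1a2 rose by 3.95 and 4.03 and Loxl3 differed by -0.32. It adds no test of Loxl3.

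**Figure D4:**
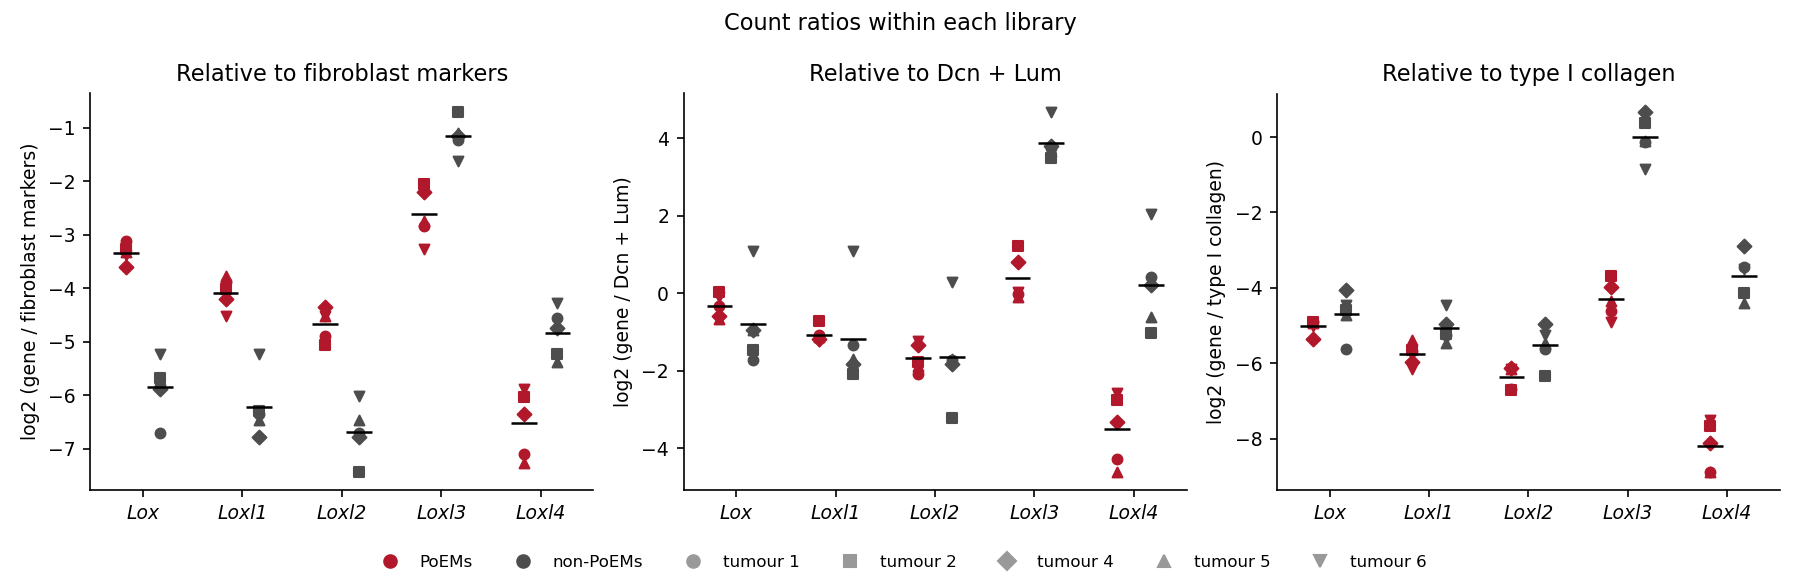
Log2 ratio of the reads of each member to those of the fibroblast marker list (left), of Dcn and Lum together (middle) and of Col1a1 and Col1a2 together (right) in each PoEMs (red) and non-PoEMs (grey) library, with group means as bars and symbols for tumours. Lox, Loxl1 and Loxl2 separate upwards in PoEMs on the left, by 2.51, 2.15 and 2.01, and have means within 0.47 of non-PoEMs in the middle, where the denominator was chosen with its fold changes known, while Loxl3 and Loxl4 lie lower in PoEMs in all 3 panels. Those lower ratios came mainly from higher denominators in PoEMs, as Loxl3 and Loxl4 themselves differed by -0.32 and -0.50 on the log2 scale. Without the non-PoEMs library of tumour 6, with 4 reads of Dcn and 0 of Lum, the middle differences of Lox, Loxl1 and Loxl2 were 0.94, 0.67 and 0.45.

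Genes whose products process or bind lysyl oxidases moved in part. Of 11 listed, 8 were tested, of which 2 were higher and 0 lower, where 6.83% of all genes tested were higher and 6.77% lower, and the median log2 fold change was 0.19. At an unadjusted p under 0.05 there were 3 higher and 1 lower, and by DESeq2 2 and 0. Postn encodes periostin, a matricellular protein that brings BMP1 to its substrates, and rose to 19.5 ± 4.98 CPM in PoEMs, against 2.63 ± 1.29 CPM in non-PoEMs (SD, n = 5 each), a log2 difference of 2.88 ± 0.31 (SE, edgeR adjusted p = 0.000229). Fn1, the gene of fibronectin, which binds LOX, reached 14235 ± 2487 CPM in PoEMs, against 7091 ± 1568 CPM in non-PoEMs, a log2 difference of 1.01 ± 0.16 (SE, edgeR adjusted p = 0.00153). Bmp1 itself, the protease that activates LOX, was measured at 11.5 ± 3.004 CPM in PoEMs and 12.3 ± 1.18 CPM in non-PoEMs (edgeR adjusted p = 0.732; named after its values were seen). Efemp2, which encodes fibulin 4, a bridge between LOX and elastin, differed by 0.26 ± 0.10 (SE, edgeR adjusted p = 0.107, and 0.0330 with the tumour as a block). Pcolce2, a procollagen proteinase enhancer gene, differed by -0.63 ± 0.29 (adjusted p = 0.173).

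Other enzymes that modify or cross-link collagen gave 3 of 10 tested members higher and 0 lower, against 6.83% and 6.77% of all genes tested, and a median log2 fold change of 0.31. DESeq2 gave the same numbers, and 5 were higher and 0 lower both in the fit with the tumour block and at an unadjusted p under 0.05; under the block 13.8% of all genes tested were higher. P4ha2, an alpha subunit gene of prolyl hydroxylase, rose to 17.1 ± 3.36 CPM in PoEMs, against 4.59 ± 1.42 CPM in non-PoEMs (SD, n = 5 each), a log2 difference of 1.90 ± 0.21 (SE, edgeR adjusted p = 0.000175). P4ha1, its paralogue, and Plod1, a lysyl hydroxylase gene, rose by 0.37 ± 0.11 and 0.28 ± 0.09 (SE, edgeR adjusted p = 0.0364 and 0.0497), but lost their calls when 1 library was left out, for 7 and 8 of the 10 libraries (edgeR adjusted p of at most 0.0951 and 0.128). Tgm2, a transglutaminase that cross-links matrix by another reaction, was at 2094 ± 489 CPM in PoEMs and 1553 ± 326 CPM in non-PoEMs, without passing the test (edgeR adjusted p = 0.128, and 0.000109 with the tumour as a block).

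Copper handling genes, which supply the cofactor of these enzymes, had 1 of 11 tested members higher and 1 lower and a median log2 fold change of -0.02, with 2 higher and 2 lower under the tumour block. These counts are near the shares of all genes tested, 6.83% higher and 6.77% lower without the block and 13.8% and 14.3% with it. The copper- and zinc-binding metallothionein gene Mt2 was at 73.8 ± 11.45 CPM in PoEMs and 31.1 ± 8.98 CPM in non-PoEMs (SD, n = 5 each), a log2 difference of 1.25 ± 0.19 (SE, edgeR adjusted p = 0.00164). Steap4, a metalloreductase gene, fell to 3.94 ± 3.36 CPM in PoEMs, against 13.3 ± 5.65 CPM in non-PoEMs (edgeR adjusted p = 0.0414); for 7 of the 10 libraries, leaving that library out ended the call (adjusted p of at most 0.0994). Mt1 and the copper chaperone gene Atox1 differed by 0.43 ± 0.16 and -0.23 ± 0.08 (SE, edgeR adjusted p = 0.103 and 0.0973), and passed in the blocked fit (adjusted p = 0.000943 and 0.00510). Atp7a, the pump that loads copper into secreted enzymes, was at 138.1 ± 4.68 CPM in PoEMs and 128.4 ± 8.504 CPM in non-PoEMs (edgeR adjusted p = 0.258; named after its values were seen).

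Of 11 tested genes known to regulate lysyl oxidase transcription, 1 was higher and 1 lower and the median log2 fold change was -0.07, with 2 higher and 1 lower under the tumour block. The same shares, 6.83% and 6.77% without the block and 13.8% and 14.3% with it, stand against these counts, which are near them. Epas1, which encodes the hypoxia-inducible factor HIF2A, rose to 59.3 ± 21.3 CPM in PoEMs, against 17.9 ± 6.99 CPM in non-PoEMs (SD, n = 5 each), a log2 difference of 1.73 ± 0.31 (SE, edgeR adjusted p = 0.00688). Smad3, a transducer of TGF-beta signals, fell to 40.9 ± 4.81 CPM in PoEMs, against 58.1 ± 4.84 CPM in non-PoEMs, a log2 difference of -0.51 ± 0.09 (SE, edgeR adjusted p = 0.00211). Tgfb3, a ligand of that pathway, differed by 0.67 ± 0.26 (SE, edgeR adjusted p = 0.127, and 0.000988 with the tumour as a block), and Smad2 by -0.16 ± 0.06 (adjusted p = 0.0924). Hif1a was at 518.7 ± 65.6 CPM in PoEMs and 544.8 ± 51.2 CPM in non-PoEMs (edgeR adjusted p = 0.670; named after its values were seen). In these libraries the fibroblast markers summed to 49.8 to 71.7 CPM in PoEMs and 26.1 to 28.6 CPM in non-PoEMs, and their part in the values of these lists was not tested.

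**Figure D5:**
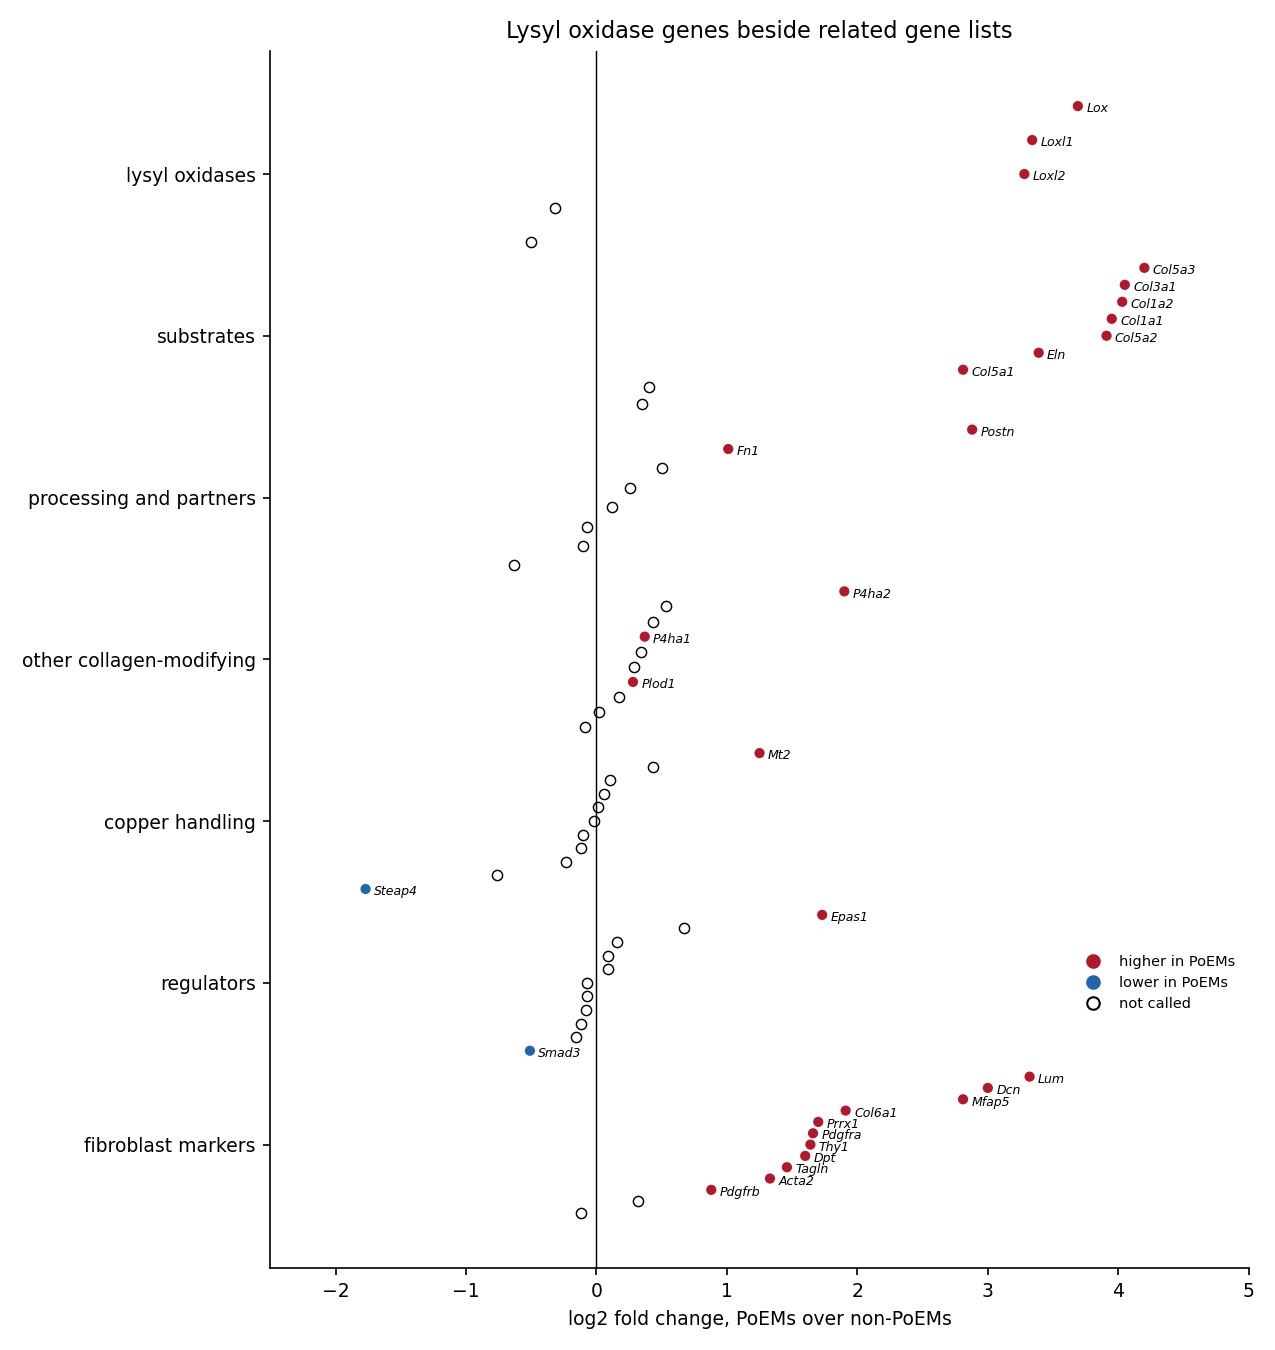
Fitted log2 fold change, PoEMs over non-PoEMs, of every tested gene of the lysyl oxidase family, of the related lists and of the fibroblast marker list; filled red points were called higher, filled blue points lower and open points not called. Lox, Loxl1 and Loxl2 lie between 3.28 and 3.69, in the range of the called substrates (2.81 to 4.20) and above 12 of the 13 tested fibroblast markers, which lie between -0.12 and 3.0 with Lum at 3.32 above them, and most genes of copper handling and of regulation lie near 0.

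Genes with the most similar pattern were sought by the root mean square difference between centred profiles of log2(CPM + 0.5) over the 10 libraries, a measure that is set mainly by the difference between the groups and understates changes of low genes. Nearest to Lox were the collagen genes Col5a1, Col6a2 and Col5a3, at differences of 0.270, 0.297 and 0.304, and Loxl1 stood at place 6, at 0.325. Nearest to Loxl1 were Cpxm1, which encodes a carboxypeptidase-like protein, Nid1, which encodes the basement membrane protein nidogen, and Svep1, a secreted matrix protein gene, at 0.188, 0.226 and 0.259. Nearest to Loxl2 were Il7r, the interleukin 7 receptor gene, Sparc, a collagen-binding matricellular protein gene, and Sulf1, a heparan sulfatase gene, at 0.206, 0.213 and 0.226. Loxl3 lay nearest to the gene listed as RP24-377D18.5 and to Abcc5 and Apobec1 (0.114, 0.116 and 0.125), and Loxl4 to Gm37784, Camkk1 and Aldh1b1 (0.173, 0.175 and 0.187). In the order from Loxl1, Lox stood at place 14 and Loxl2 at place 16, and in that from Loxl2, Loxl1 stood at place 20 and Lox at place 98.

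For identification, GENCODE M21 (GRCm38), a build not stated for these counts, places all 5 as protein-coding genes on separate chromosomes. Lox (ENSMUSG00000024529) lies on chromosome 18 from 52516067 to 52529867, minus strand, and Loxl1 (ENSMUSG00000032334) on chromosome 9 from 58287738 to 58313186, minus strand. Loxl2 (ENSMUSG00000034205) lies on chromosome 14 from 69609068 to 69695834, plus strand. Loxl3 (ENSMUSG00000000693) lies on chromosome 6 from 83034173 to 83052562, plus strand, and Loxl4 (ENSMUSG00000025185) on chromosome 19 from 42593982 to 42612813, minus strand. Counts are summed over each gene, so the values above cannot tell transcripts of a gene apart.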

How the data were processed

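The authors deposited raw counts per gene for 10 libraries, with Ensembl identifiers and gene names. The submitters' processing notes name featureCounts 1.5.3, STAR 2.5.2b, cutadapt 1.15 and Bowtie2 2.3.3.1; the sources used here do not state their roles, the genome build or how strand and multi-mapping reads were handled. Groups and tumour numbers came from the labels. Counts were tested with edgeR 4.0.16 (R 4.3.3), using filterByExpr by group (minimum count 10, minimum total 15), TMM scaling and a robust quasi-likelihood fit with group as its only term; the common biological coefficient of variation was 13.3%. The SE is the size of the log2 fold change over the square root of F. The tumour number was a block in an alternative fit: libraries that the labels give the same tumour number deviated together from their group means (correlation 0.237 to 0.499). DESeq2 1.42.0 was another alternative. Ratios of counts used a pseudocount of 0.5 and exact permutation tests over libraries. The edgeR script was tested on simulated data. Named genes are the members, Pdpn, up to 4 tested genes with the lowest p per pathway list, markers at 0 in every library, and the 3 nearest patterns of each member. Htra2 was named for its overlap with Loxl3. Others are marked as named after their values were seen. Members and lists were chosen with earlier results of these data known. Pre-amplified reads carry no molecular identifiers.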

Additional observations from a re-analysis of the deposited data

Results flagged for a closer look

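Among 70 groups of 5 values examined for a library far from the rest, 6 held one, where chance alone gives about 1 in 20. The non-PoEMs library of tumour 6 had the highest Loxl1, at 0.658 CPM (9 reads), and accordingly the highest log2 ratio of Loxl1 to Loxl3 among non-PoEMs, at -3.62. The same library had the highest sum of epithelial tumour cell markers among non-PoEMs, at 217.2 CPM. Most of that sum was Cdh1, whose highest value among non-PoEMs was 156.9 CPM. The PoEMs library of tumour 6 had the lowest log2 ratio of Loxl3 to Loxl4 among PoEMs, at 2.61, and the highest sum of macrophage markers among PoEMs, at 16694 CPM. The PoEMs library of tumour 4 had the lowest log2 ratio of Lox to type I collagen among PoEMs, at -5.36. Without the non-PoEMs library of tumour 6 the log2 fold change of Loxl1 was 3.66 (edgeR), and without the PoEMs library of tumour 6 it was 3.4.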

How the results depend on the processing

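Over 26 alternative settings the log2 fold changes of Lox, Loxl1 and Loxl2 stayed called, at 3.4 to 3.83, 3.16 to 3.72 and 3.11 to 3.46; Loxl4 was not called in any of the 22 settings that gave a value, and gave none without tumour 4 or 6. The tumour as a replicate block moved Loxl3 to a call at -0.31 (-0.39 without tumour 4, -0.33 without tumour 6), with a range of -0.43 to -0.18 over left-out libraries; with DESeq2 and the block its adjusted p was 0.123. The block gave 1880 genes higher and 1950 lower (1505 and 1692 without tumour 1, 1447 and 1677 without 4, 1398 and 1564 without 5, 1925 and 2016 without 6), against 929 and 920 without it, and DESeq2 with the block gave 1445 lower; leaving out libraries gave 437 to 1049 higher and 482 to 1026 lower without the block. Exact permutation over 5 pairs cannot go below 0.0625, so these log2 differences lost their calls: 3.97, 4.19, 3.6, 3.83, 3.46 and 3.69 between members, 2.51, 2.15, 2.01, -1.46 and -1.68 against fibroblast markers, and -0.84, -4.30 and -4.53 for Loxl2, Loxl3 and Loxl4 against type I collagen. Loxl1 against type I collagen, at -0.70, lost its call above that limit, as 1 tumour was higher and 4 were lower. Its adjusted p by exact permutation over pairs was 0.156, against 0.104 for Loxl2, Loxl3 and Loxl4. Against Dcn and Lum alone, chosen with their fold changes known, the differences of Lox, Loxl1 and Loxl2 were 0.47, 0.11 and -0.03, which is a description. Without the non-PoEMs library of tumour 6 these differences were 0.94, 0.67 and 0.45. Leaving out libraries moved Lox to Loxl2 between 0.19 and 0.73, Loxl1 to Loxl2 between -0.02 and 0.37, Loxl3 to Loxl4 between -0.03 and 0.55, and the ratios to type I collagen between -0.60 and -0.10 for Lox, -0.89 and -0.45 for Loxl1, -1.05 and -0.70 for Loxl2, -4.51 and -4.13 for Loxl3 and -4.78 and -4.31 for Loxl4. The few reads of Lox, Loxl1 and Loxl2 in non-PoEMs limit each ratio that uses them.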
